A study of Mus musculus with 8 samples.

Results

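Round spermatids, the haploid cells that follow meiosis, were compared with type A spermatogonia, the dividing cells at the start of the male germ line, by the transcript levels on 2 arrays of each. The 4 arrays were those titled with these cell types, out of 8 in the series, which also holds 2 arrays each of type B spermatogonia and pachytene spermatocytes. The type B arrays entered only alternative settings, and the pachytene arrays are given as an intermediate level outside the test. All cells came from mice of a mixed BL/6-129 background. No treatment, age or transgene is named in the labels, each array had its own germ cell preparation per the design text, and no label says how the cells were purified. The net change between the 2 cell types was called for 9956 of 13336 genes.

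Spermatogonia divide by mitosis next to the basement membrane of the seminiferous tubule, and the type A class includes the stem cells. After meiosis, the round spermatid grows an acrosome, the vesicle whose enzymes and membrane proteins serve fertilization, and a flagellum with an axoneme wrapped in dense fibres and a fibrous sheath. Its histones are later replaced by transition proteins and then by protamines, and many of its mRNAs are stored before they are translated. The X chromosome is silenced in pachytene cells and stays largely repressed in spermatids, with exceptions.

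The promoters of 4 of the 12 genes with the largest rise are shown as examples with and without exact matches to the motifs of known activators of such genes. They are the 250 bases before the RefSeq start site (build GRCm38.p6, minus strand in each case), written 5′ to 3′ on the gene's strand. Capitals mark a full cyclic AMP response element (CRE, TGACGTCA), the site of CREM, a known activator of spermatid genes, or the X-box core GTTGCC on either strand, part of the site of RFX factors, which are known to act on genes of cilia and flagella. The Iqcf3 stretch lies at chr9:106561626-106561875, that of Pdcl2 at chr5:76331157-76331406, that of Spz1 at chr13:92576233-92576482 and that of Prm1 at chr16:10796824-10797073.
Iqcf3: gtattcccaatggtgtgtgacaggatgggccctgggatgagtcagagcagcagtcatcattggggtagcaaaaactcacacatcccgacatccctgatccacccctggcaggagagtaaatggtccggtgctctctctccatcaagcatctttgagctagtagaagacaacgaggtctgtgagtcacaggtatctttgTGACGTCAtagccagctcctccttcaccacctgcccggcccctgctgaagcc
Pdcl2: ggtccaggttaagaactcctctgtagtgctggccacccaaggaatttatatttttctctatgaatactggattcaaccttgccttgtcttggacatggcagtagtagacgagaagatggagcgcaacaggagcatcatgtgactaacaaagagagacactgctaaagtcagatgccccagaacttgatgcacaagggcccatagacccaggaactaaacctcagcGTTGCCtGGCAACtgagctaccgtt
Spz1: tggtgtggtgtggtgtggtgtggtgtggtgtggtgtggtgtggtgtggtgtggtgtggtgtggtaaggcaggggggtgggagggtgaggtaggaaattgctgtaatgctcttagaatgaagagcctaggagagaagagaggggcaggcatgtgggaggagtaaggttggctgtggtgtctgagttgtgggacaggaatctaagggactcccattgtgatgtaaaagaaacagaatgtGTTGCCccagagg
Prm1: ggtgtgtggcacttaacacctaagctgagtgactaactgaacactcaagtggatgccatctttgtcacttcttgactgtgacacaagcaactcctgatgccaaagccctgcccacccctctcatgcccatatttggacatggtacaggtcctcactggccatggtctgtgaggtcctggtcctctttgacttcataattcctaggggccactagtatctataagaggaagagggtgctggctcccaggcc

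The Iqcf3 promoter held a full CRE at -52 from the start, although another start listed for this gene had none. Pdcl2 held the X-box core on both strands, at -25 and -18, and Spz1 held it at -13. Prm1 held neither exact run of letters, although its stretch has TGACTTCA, which differs from the full CRE in 1 letter. Prm1 had the largest change on the log2(signal + 16) scale. That order depends on the added constant, since with log2(signal + 1) Iqcf3 changed by 11.69 and Prm1 by 11.01. Among the 12 largest rises, each of which had a promoter entry, 1 had a full CRE and 4 had the X-box core in the 300 bases from 250 before to 50 after the start. Shares of all promoters below are over 32851 promoters, not genes. A gene can have several, so these shares are not like the shares of genes. Over all tested genes with an entry, the X-box core was in the promoters of 1672 of 10755 (15.5%). It was in 670 of 3388 genes called higher in spermatids (19.8%), in 168 of 586 called at least 16-fold higher (28.7%), in 590 of 4661 called lower (12.7%), and in 12.5% of all promoters of that length. The full CRE showed no such gradient. It was in 3.46% of tested genes, 3.6% of those called higher, 2.9% of those at least 16-fold higher, 3.22% of those called lower and 1.79% of all promoters. The shorter run TGACG, which lies within the full CRE, was in 33.6% of tested genes, 31.8% of those called higher and 22.0% of those at least 16-fold higher, against 34.2% of those called lower and 20.8% of all promoters. Both strands were searched, and a match is a description of the letters only. Only exact matches were counted, so variants of these sites were missed and their shares are not known.

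Genes taken here as markers of each cell type are given first. They were chosen with earlier results of these data known, so their direction describes the arrays and does not test the labels. Prm1 (protamine 1, probe set 1437054_x_at, chromosome 16) had a signal of 1.2 and 3.1 on the type A arrays and 6043.7 and 6381.2 on the spermatid arrays. Tnp2 (transition protein 2, 1422419_s_at, chromosome 16) read 2.9 and 2.1 against 3404.3 and 4501.7. The spermatid values stood far above both type A values for each gene, and the log2 change was 8.42 ± 0.19 and 7.73 ± 0.21 (here and below, limma's estimate ± SE on the log2(signal + 16) scale, n = 2 arrays against 2). Odf1, a protein of the outer dense fibres, read 4.1 and 3.3 in type A and 3373.2 and 3743.1 in spermatids (1422585_at, chromosome 15, 7.50 ± 0.19). Izumo3, a sperm membrane protein, read 1.9 and 1.9 against 1590.9 and 1811.0 (1429807_at, chromosome 4, 6.58 ± 0.19). Tnp1 and the acrosomal vesicle gene Acrv1 rose by 7.50 ± 0.23 and 5.74 ± 0.19. All 6 spermatid markers were thus at the high end of the change. Their 2 groups did not overlap, which held for every called gene.

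In type A cells, Plagl1, an imprinted zinc finger gene, read 1437.2 and 1929.4, against 29.0 and 7.9 in spermatids (1426208_x_at, chromosome 10, -5.68 ± 0.31). Dlk1, an imprinted ligand of the Notch family, read 1339.4 and 1145.3 against 41.2 and 32.0 (1449939_s_at, chromosome 12, -4.58 ± 0.21). Other probe sets gave smaller changes, from -5.68 to -0.81 for Plagl1 and from -4.58 to 0.18 for Dlk1. Zbtb16, a transcription factor of the stem cell pool, read 1087.6 and 783.2 in type A and 81.5 and 73.3 in spermatids (-3.33 ± 0.22). Sall4 and Lin28a fell by 3.13 and 3.12, and Kit, the receptor of differentiating spermatogonia, fell by 2.04 with 179.2 and 177.0 left in spermatids. All 6 genes taken as type A markers passed the test (adjusted p from 5.13e-07 for Dlk1 to 3.35e-05 for Kit, limma, Benjamini-Hochberg). Since they were chosen with earlier results known, this does not test the choice. Plagl1 and Dlk1 are known from somatic cells as well, and the summed signals of Sertoli cell markers and of peritubular, stromal and endothelial markers were 8.77 and 8.36 times as high on the type A arrays as on the spermatid arrays. Their part in these falls was not tested.

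Transcripts that rose did so by far larger factors than those that fell. Of 13336 genes tested, 4181 were higher in spermatids (31.4%), 5775 were lower (43.3%) and 3380 did not pass, at an adjusted p under 0.05 (limma, Benjamini-Hochberg). At 4-fold or more, 1963 were higher (14.7%) and 1537 lower (11.5%). At 16-fold or more, 739 were higher and 52 lower, and at 64-fold or more, 165 were higher and 0 lower. For all 9956 called genes the spermatid and type A arrays did not overlap. The median change over all tested genes was -0.28, and the split depended on how arrays were scaled to each other. As deposited, 42.0% of called genes were higher. The share was 49.1% after quantile normalization (median change -0.04), 55.5% after centring each array on its 75th percentile (0.16), and 70.2% after centring on 40 ribosomal protein genes (0.59). In bulk RNA, fewer cells of a type and less RNA per cell cannot be told apart.

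**Figure D1:**
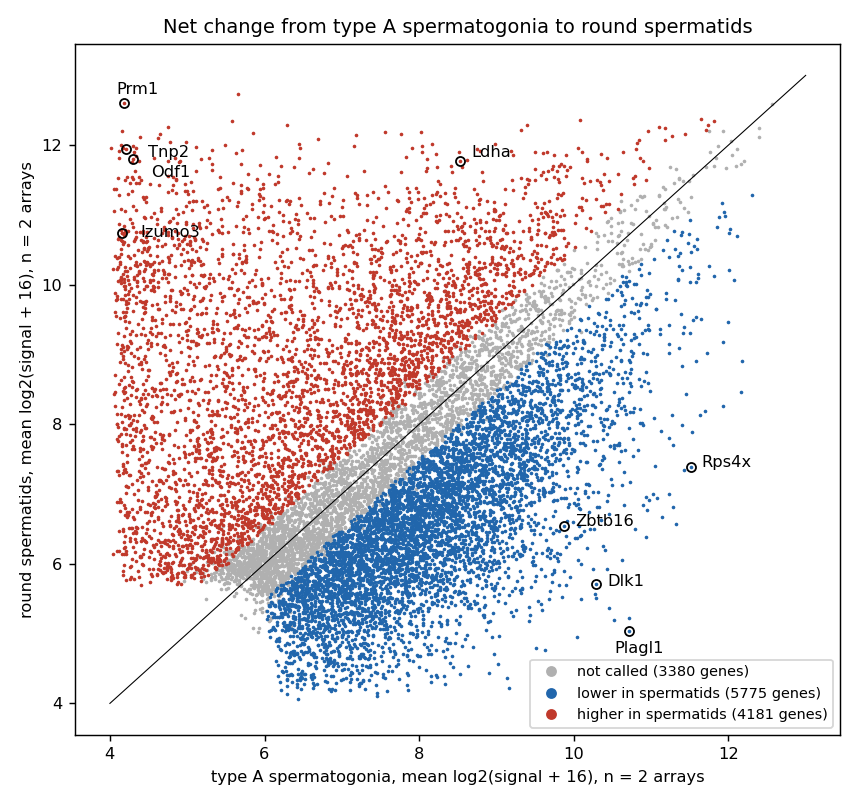
Mean log2(signal + 16) of 13336 genes in type A spermatogonia (x axis) and round spermatids (y axis), n = 2 arrays each. Points are coloured by call and the line marks equal level. Risers such as Prm1, Tnp2 and Odf1 start at the floor of the scale in type A cells, whereas Plagl1 and Dlk1, the circled fallers nearest the bottom right, start from high signal.

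The low end of the scale and the choice of probe set bear on these counts. A gene was tested when its probe set lay above the array median on at least 2 of the 4 arrays, so a gene high in 1 cell type could enter through that type alone. Of the genes called higher, 1743 (41.7%) lay above the median on no type A array, and of those called lower, 1070 (18.5%) lay above it on no spermatid array. The log2 change understates the fold for these. Of 5746 called genes with several probe sets, 67.9% had all of them with the same sign, and 538 had probe sets called in both directions. Across genes, which are not independent, r between replicates was 0.964 for type A and 0.982 for spermatids, and their median signals were 51.9 and 45.3 in type A and 33.7 and 37.3 in spermatids. The control for the 3′ end of 18S ribosomal RNA read 2657.9 and 3166.1 on the type A arrays and 158.2 and 120.1 on the spermatid arrays, and this split cannot be told apart from the cell type.

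On the log2(signal + 16) scale, the 12 largest rises were Prm1, Gk2, Iqcf3, Spz1, Akap4, Crisp2, Pdcl2, Tnp2, Clec2m, Tsga8, 1 gene with a RIKEN name, and Ldhal6b, with log2 changes from 8.42 to 7.59. They include the testis glycerol kinase Gk2, with 2.8 and 0.9 in type A and 4652.5 and 4700.5 in spermatids (8.04 ± 0.19). Spz1, a transcription factor of spermatids, read 1.3 and 2.2 against 3695.5 and 4482.9 (7.85 ± 0.20). Akap4, the main scaffold of the fibrous sheath and an X-linked gene, read 1.6 and 1.2 against 3828.3 and 3864.7 (7.79 ± 0.19). Gk2, Spz1 and Akap4 were near the floor on both type A arrays and far above it on both spermatid arrays. The largest rises differed in when the signal appeared. On the pachytene arrays Gk2 already read 3932.9 and 4229.8, Crisp2, which encodes a cysteine-rich secretory protein of sperm, read 3062.4 and 3326.5, and Ldhal6b, a lactate dehydrogenase-like gene, read 3814.9 and 4259.1. Their pachytene mean was 87.3%, 80.3% and 105% of the spermatid mean. Spz1, Akap4 and Iqcf3 stood at 4.8%, 5.78% and 6.15% there, and Prm1 at 14.6%.

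**Figure D2:**
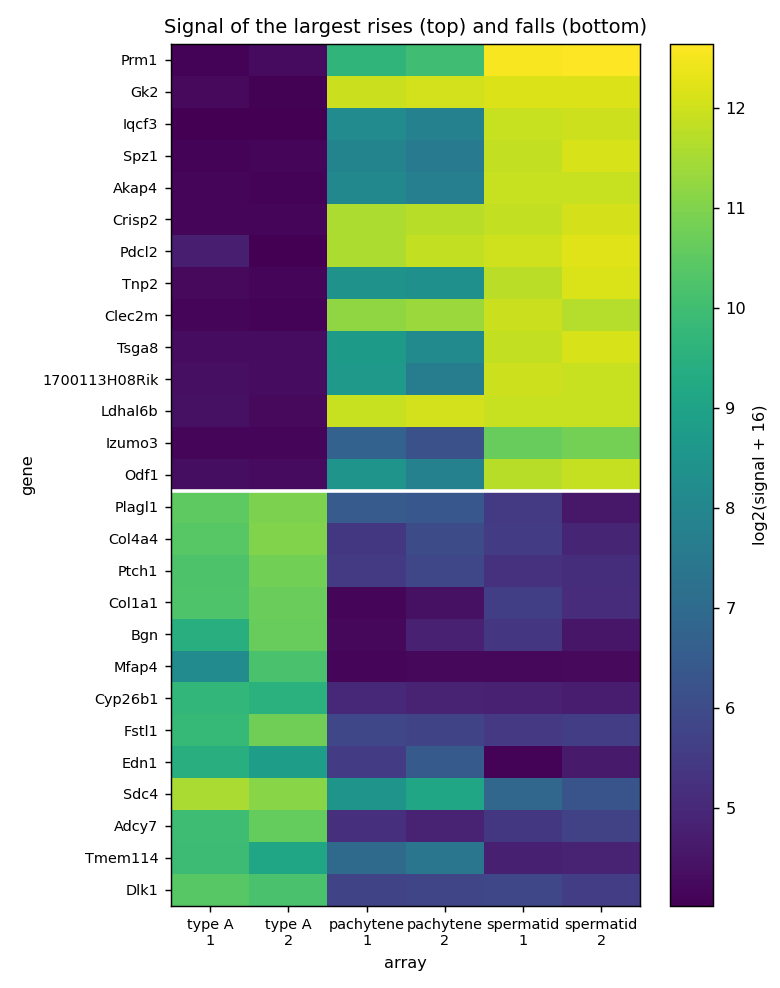
Signal on the 6 arrays (columns: type A, pachytene and spermatid replicates) for the 12 largest rises plus Izumo3 and Odf1 (top) and the 12 largest falls plus Dlk1 (bottom). Colour is log2(signal + 16). Gk2, Crisp2, Pdcl2, Clec2m and Ldhal6b are bright from the pachytene arrays on, while Prm1, Spz1, Akap4 and Tnp2 are brighter on the spermatid arrays than on the pachytene arrays.

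Nearly all tested genes for the structures of the sperm cell rose, against 31.4% of all genes. Of 22 tested genes for the flagellar sheath, outer dense fibres and tektins, 22 rose with a median of 5.86, against -0.28 over all genes. Smcp, a cysteine-rich protein of the sperm mitochondrial capsule, read 10.3 and 7.0 in type A and 4241.7 and 4493.8 in spermatids (7.48 ± 0.20), and Odf3 rose by 7.0 ± 0.19. Of 32 genes for the acrosome and sperm-egg fusion, 30 rose and 0 fell, with a median of 5.57. The metalloprotease-like surface proteins Adam5 and Adam3 rose by 7.26 ± 0.20 and 7.09 ± 0.21, and Spesp1, an equatorial segment protein, by 6.65 ± 0.24. Gopc, a Golgi protein needed for acrosome formation, did not pass (-0.47 ± 0.20, adjusted p = 0.0632, limma). Of 17 genes for chromatin packaging, 16 rose with a median of 5.55. Hils1, a spermatid linker histone, read 4.8 and 2.2 against 2770.9 and 3208.5 (7.27 ± 0.20). Rnf8, a ubiquitin ligase that acts on histones, fell by 1.09, from 268.3 and 237.6 to 126.6 and 96.3, a call that was lost after centring on ribosomal protein genes. These lists were chosen with earlier results of this series known, so their counts describe the cells and do not test the choice. The counts are over members that passed the filter, and a member could pass through the cell type where it was high.

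All 20 tested genes for axonemal dynein and the central pair, the motor of the flagellum, rose (against 31.4% of all genes), with a median of 3.49. Dnali1, a dynein light intermediate chain, read 1.4 and 1.2 in type A, 705.3 and 899.9 in pachytene cells and 1314.2 and 1351.6 in spermatids (6.28 ± 0.19). Rsph6a, a radial spoke protein, read 23.9 and 19.4, then 953.7 and 1051.4, then 1001.0 and 950.8 (4.72 ± 0.19). At the median of the risers of each list, the pachytene signal was 104% of the spermatid signal for the axonemal genes, 23.1% for the sheath and dense fibres, 8.16% for chromatin packaging and 7.42% for the acrosome. These shares are descriptions, and the difference between lists was not tested. The 15 genes for sperm ion channels and calcium signalling all rose (median 4.35, pachytene level 21.7%), and their pachytene levels varied. Catsperz, a subunit of the sperm calcium channel, was at 1605.2 and 2433.7 in pachytene cells and 1949.7 and 2533.4 in spermatids. Plcz1, the phospholipase that sets off calcium waves in the egg, was at 166.4 and 116.5 and then at 1754.8 and 1696.2, and Efcab9, a calcium sensor of the channel, at 134.8 and 151.3 and then 2108.1 and 2593.3.

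For the manchette, the microtubule skirt that shapes the sperm head, 19 of 24 genes rose (79.2%, against 31.4% of all genes). Another 4 fell (16.7%, against 43.3%), and the median was 3.18. Meig1, needed for the manchette, read 50.2 and 34.5 in type A and 4161.5 and 5114.9 in spermatids (6.32 ± 0.23), and Spem1 read 2.6 and 2.1 against 739.9 and 1259.3 (5.74 ± 0.27). Among the fallers were 2 lamins of the nuclear envelope. Lmnb1 fell by 1.63 and Lmna by 1.34, the latter with type A values of 147.7 and 308.5 that lay apart from each other. With 1 array left out, here and below, a cell type has a lone array that is assumed to vary like the other cell type. The call of Lmna was lost without spermatid replicate 1 (adjusted p = 0.0505, limma, within 3.76e-06 to 0.154 over the alternatives), after quantile normalization and after centring on ribosomal protein genes.

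**Figure D3:**
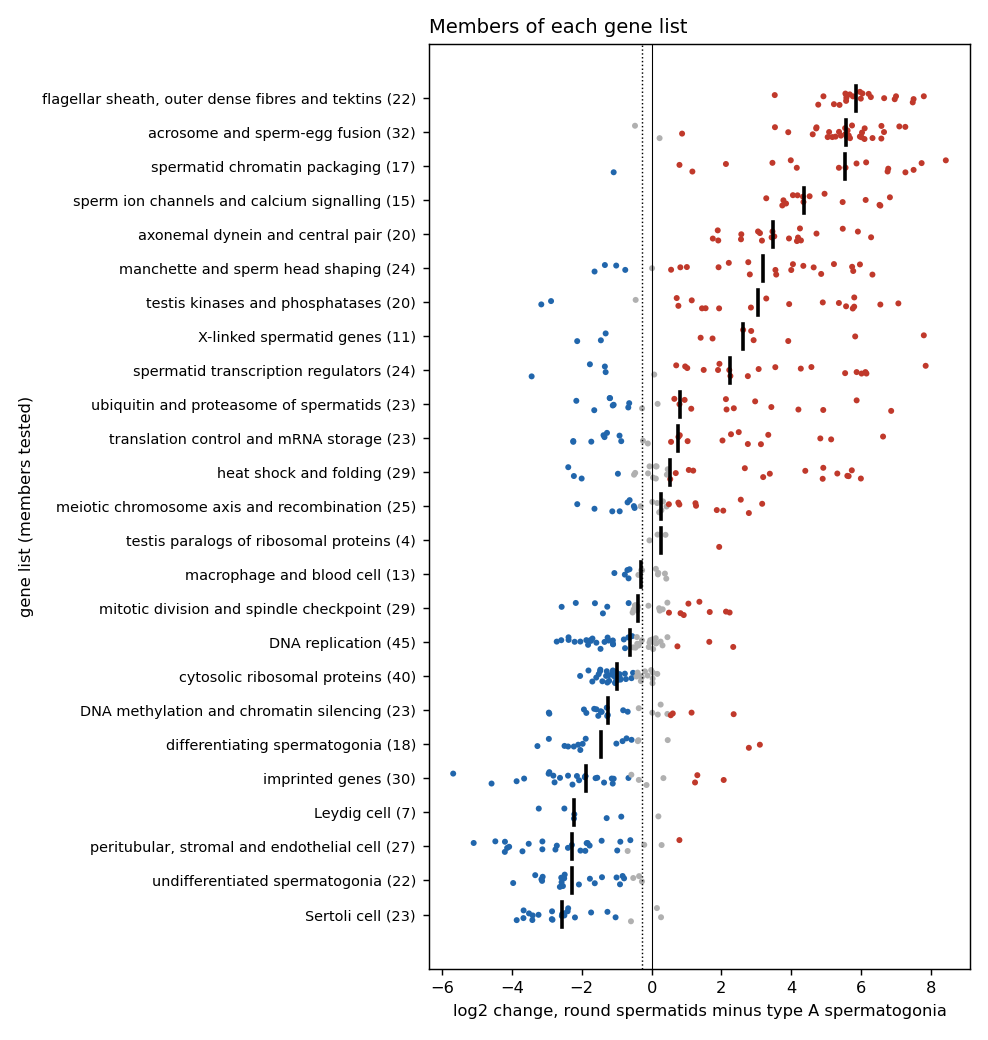
Log2 change (x axis) of each tested member of 25 gene lists (y axis, number tested in brackets). Red points were called higher in spermatids, blue lower and grey neither, black bars are list medians and the dotted line is the median of all tested genes (-0.28). The sheath, acrosome and packaging lists sit at the right with medians from 5.55 to 5.86, the spermatogonial, Sertoli, Leydig and stromal lists lie at the left with medians from -2.56 to -1.45, and the macrophage and blood cell list lies at -0.30.

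Among signalling and transcription genes, the rises were accompanied by falls. Of 20 testis kinases and phosphatases, 17 rose and 2 fell. Tssk2, a testis-specific serine kinase, read 2.4 and 3.4 in type A and 2367.1 and 2672.0 in spermatids (7.07 ± 0.19). Tssk1 rose by 5.80 ± 0.48, with a wide error because the type A arrays read 2.5 and 45.5. Pdk1, which inhibits pyruvate dehydrogenase, fell by 3.16, and Cdk16, an X-linked cyclin-dependent kinase, by 2.88, although another of its probe sets gave 0.25. Of 24 transcription regulators known from spermatids, 19 rose (79.2%) and 4 fell (16.7%), against the same 31.4% and 43.3%. Their median was 2.24. Creb3l4 and Fhl5, a CREB-family factor and a partner of CREM, rose by 6.15 ± 0.22 and 6.01 ± 0.23 and were at 8.73% and 3.31% of the spermatid level in pachytene cells. The falls were Zfp36, a protein that destabilizes mRNA (-3.43 ± 0.21), Taf4b (-1.77 ± 0.21), Jmjd1c (-1.34 ± 0.21) and Taf7l (-1.31 ± 0.19). Those of Jmjd1c and Taf7l did not pass after centring on ribosomal protein genes.

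Taf7l, an X-linked form of a TFIID subunit, changed in both directions along the way. It read 1427.0 and 1600.6 in type A, 88.2 and 103.7 in pachytene cells and 591.2 and 604.9 in spermatids. The spermatid values lay between those of the other stages, and the net fall was smaller than that to the pachytene arrays.

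Of 23 genes that store or translate mRNA, 13 were higher (56.5%) and 8 lower (34.8%), against 31.4% and 43.3% of all genes. The list median of 0.77 was 0.40 after quantile normalization, 0.41 with the mean of all probe sets, 1.21 after centring on the 75th percentile and 1.64 after centring on ribosomal protein genes, where 3 were lower. Ybx2, which packages stored mRNA, read 171.6 and 91.8 in type A and 3903.9 and 4164.1 in spermatids (4.83 ± 0.28), and Tdrd7, a tudor protein of germ cell granules, rose by 3.34 ± 0.20. The RNA-binding proteins Elavl1 and Celf1 each fell by 2.24, although 1 probe set of Elavl1 gave 0.22. Dazl, an RNA-binding protein of germ cells, fell by 0.92 but kept 1472.9 and 1306.9 in spermatids against 2529.6 and 2744.0. The falls of Dazl and of Cpeb1 (-1.28 ± 0.29) did not pass after centring on ribosomal protein genes, nor that of Dazl after centring on the 75th percentile. Among 23 genes of ubiquitination and the proteasome, 13 rose (56.5%) and 8 fell (34.8%), against 31.4% and 43.3% of all genes. The sign of the list median of 0.80 depended on the probe sets. It was -0.31 with the mean of all probe sets, where 9 were higher and 7 lower, 0.38 after quantile normalization, 1.24 after centring on the 75th percentile and 1.67 after centring on ribosomal protein genes, where 2 were lower. Klhl10, a substrate adaptor needed for spermatid maturation, read 38.5 and 26.6 against 2821.5 and 2786.4 (5.87 ± 0.21), and Marchf11, a membrane-bound ubiquitin ligase, rose by 6.86 ± 0.40 from 2.4 and 32.4. Sqstm1, the ubiquitin-binding autophagy receptor, fell by 1.64, and the proteasome subunit Psma7 by 2.15. Without spermatid replicate 1, 5 of this list were called lower in place of 8.

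Many widely expressed proteins have a related gene that is used in the testis, and in 31 listed pairs both forms were tested. The related gene is called the testis form here, and its use in other tissues was not examined. The testis form rose in 29 pairs and fell in 2, with a median of 5.14. The widely expressed form rose in 6, fell in 18 and did not pass in 7, with a median of -1.18. Over all genes, 31.4% were higher and 43.3% lower, with a median of -0.28. A form could pass the filter through the cell type where it was high, so these counts do not test the choice of pairs. In 16 pairs the testis form rose while the other fell. That number was 17 after quantile normalization, 14 after centring on the 75th percentile and 11 after centring on ribosomal protein genes.

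**Figure D4:**
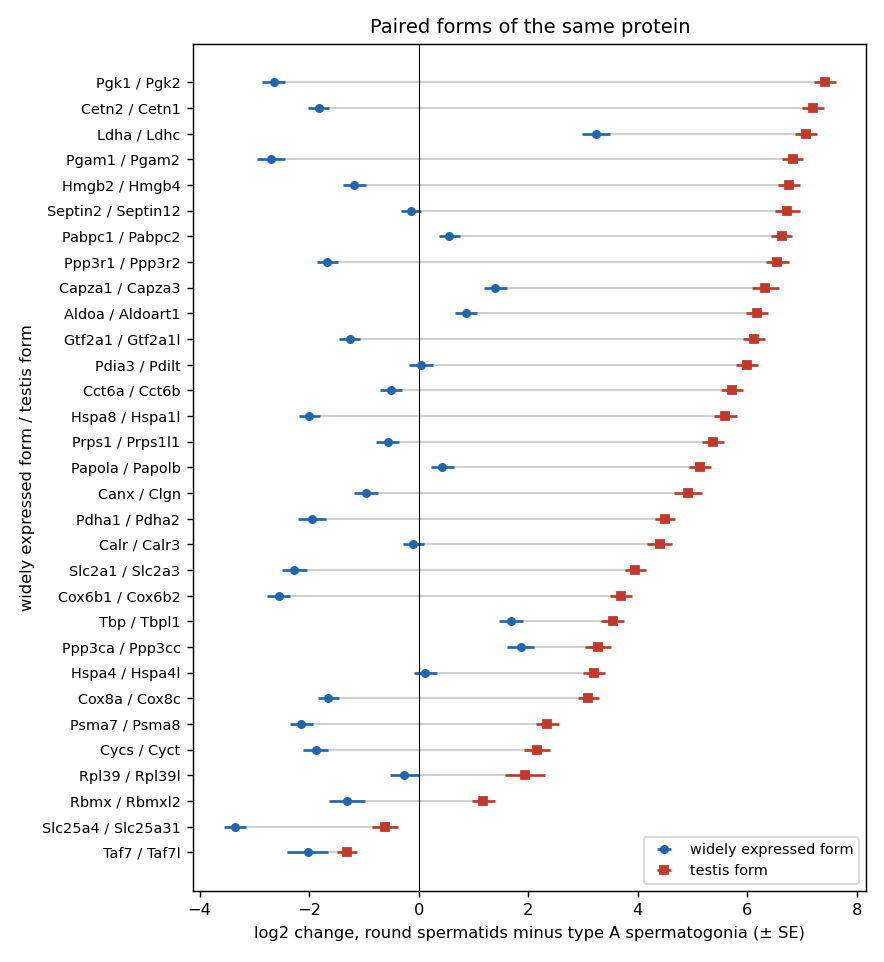
Log2 change ± SE (x axis, n = 2 arrays against 2) of the widely expressed form (blue circles) and the testis form (red squares) of 31 pairs (y axis). The testis form lies to the right of the other in every pair, and only Slc25a31 and Taf7l among the testis forms lie below 0.

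In several pairs for glycolysis and respiration the forms moved in opposite directions. Pgk1, the X-linked phosphoglycerate kinase, read 673.6 and 882.8 in type A and 106.2 and 113.3 in spermatids (-2.65 ± 0.21), while Pgk2 read 2.0 and 0.5 against 2750.0 and 3123.2 (7.42 ± 0.20). Pgam1 fell by 2.70 and Pgam2 rose by 6.83 ± 0.19. Pdha1, the X-linked pyruvate dehydrogenase subunit, fell by 1.95 and Pdha2 rose by 4.50 ± 0.19. Cycs, the somatic cytochrome c, fell by 1.88 and Cyct rose by 2.16 ± 0.23, and the subunits of cytochrome oxidase showed the same, with Cox6b1 at -2.56 and Cox6b2 at 3.70, and Cox8a at -1.65 and Cox8c at 3.10. For glucose uptake, Slc2a1 fell by 2.27 and Slc2a3 rose by 3.96 ± 0.20.

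In lactate dehydrogenase, both forms rose. Ldha read 274.1 and 457.9 in type A and 3361.4 and 3627.5 in spermatids (3.24 ± 0.26), and Ldhc read 39.6 and 29.4 against 6577.9 and 6988.1 (7.08 ± 0.20). No probe set of either spermatid array read higher than Ldhc. Aldoa, with its testis form Aldoart1 at 6.18 ± 0.20, rose by 0.87 ± 0.20, which did not pass after quantile normalization (0.39) or with the probe set highest over all 8 arrays (0.20). The adenine nucleotide carriers both fell, Slc25a4 by 3.36 and the testis form Slc25a31 by 0.62 (adjusted p = 0.0449, limma), and Slc25a31 read 0.25 after centring on ribosomal protein genes. Its call was also lost without type A replicate 2, without spermatid replicate 1 and without spermatid replicate 2.

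Pairs outside energy metabolism covered chaperones, chromatin, the cytoskeleton and RNA processing. Hspa8, the constitutive HSC70 chaperone, fell by 2.00 from 4310.8 and 4253.4 to 1128.8 and 989.7, while Hspa1l rose by 5.60 ± 0.21. Canx fell by 0.96 and Clgn, its testis counterpart, rose by 4.92 ± 0.25. Hmgb2 fell by 1.18 and Hmgb4 rose by 6.76 ± 0.20, and the X-linked centrin Cetn2 fell by 1.83 while Cetn1 rose by 7.20 ± 0.20. The falls of Canx and Hmgb2 did not pass after centring on ribosomal protein genes, nor that of Canx without spermatid replicate 2 or after centring on the 75th percentile. Capza1, an actin capping protein, rose by 1.40 together with Capza3 (6.33 ± 0.25), and Tbp, the TATA-binding protein, rose by 1.69 together with Tbpl1 (3.54 ± 0.21). For Tbp and Tbpl1, other probe sets were called lower.

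Over the whole heat shock and folding list, 15 of 29 genes rose (51.7%) and 4 fell (13.8%), against 31.4% and 43.3% of all genes. The list median of 0.53 was 0.98 with 20 higher after centring on the 75th percentile, 1.41 with 23 higher after centring on ribosomal protein genes, and 0.38 with 13 higher and 7 lower with the mean of all probe sets. Quantile normalization gave 6 lower. Besides Hspa8 and Canx, the falls were Hspd1 and Hspe1, the partner chaperonins of mitochondria. Hspd1 read 1487.5 and 1556.3 in type A and 347.8 and 281.5 in spermatids (-2.22 ± 0.20), and Hspe1 read 1365.4 and 1266.5 against 204.1 and 278.8 (-2.39 ± 0.22). On the pachytene arrays they were already at 13.6% and 9.0% of the type A level.

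On the other side of the comparison, 19 of 22 genes of undifferentiated spermatogonia fell (86.4%, against 43.3% of all genes) and 0 rose. The median was -2.28 (-1.41 with 14 lower after centring on ribosomal protein genes, and -1.51 with the mean of all probe sets). Itga6, a laminin receptor on the stem cell surface, read 720.7 and 463.4 in type A and 28.3 and 16.8 in spermatids (-3.96 ± 0.27), and Foxc2 read 154.4 and 185.7 against 5.5 and 4.2 (-3.15 ± 0.20). Of 18 genes of differentiating spermatogonia, 13 fell (72.2%) and 2 rose (11.1%, against 31.4% of all genes), with a median of -1.45. After centring on ribosomal protein genes 9 fell and 3 rose, with a median of -0.57, and centring on the 75th percentile gave 10, 3 and -1.0. Ccnd2, a cyclin of the G1 phase, read 1080.8 and 1042.6 against 83.9 and 109.3 (-3.27 ± 0.21), and Dmrt1, a regulator of the switch from mitosis to meiosis, fell by 2.39. At the median of the fallers, the pachytene level was 15.2% of that in type A for the undifferentiated list and 11.2% for the differentiating list. The risers were Dmrtb1 (3.10 ± 0.20) and the meiotic cohesin Rec8 (2.79 ± 0.19). Rec8 read 85.8 and 78.2 in type A, 24.8 and 3.6 in pachytene cells and 680.4 and 638.5 in spermatids.

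Of 45 DNA replication genes, 24 fell (53.3%, against 43.3% of all genes), 3 rose (6.67%, against 31.4%) and 18 did not pass (median -0.63). Mcm2 and Mcm4 of the replicative helicase each fell by 2.38, from 937.0 and 1096.5 to 198.0 and 167.5 for Mcm2. Cdt1, which loads that helicase, fell by 2.59. Pold3, a subunit of DNA polymerase delta, rose by 2.34 ± 0.19, with another probe set called lower, and Rfc2, part of the clamp loader, rose by 1.65 ± 0.20. Uhrf1, which carries DNA methylation through replication, read 585.5 and 688.4 against 753.1 and 552.1, and its groups overlapped. The direction of this list depended on scaling. Its median was -0.62 after quantile normalization, -0.19 after centring on the 75th percentile and 0.24 after centring on ribosomal protein genes, where 14 members were called higher and 12 lower.

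Of 29 genes of mitotic division and its checkpoint, 8 were higher (27.6%) and 6 lower (20.7%), against 31.4% and 43.3% of all genes, and the median of -0.40 lay near the -0.28 of all genes. The kinases Aurka and Plk1 rose by 2.23 ± 0.20 and 1.67 ± 0.19, and Ccnb2, a mitotic cyclin, read 303.7 and 413.8 in type A and 1638.4 and 1577.4 in spermatids (2.13 ± 0.22). Mki67, the proliferation marker, read 892.7 and 794.3 against 180.8 and 168.8 (-2.17 ± 0.19), and the centromere histone Cenpa fell by 2.57. Cdk1 and Top2a did not pass (-0.40 ± 0.20 and -0.46 ± 0.20). The median of this list was 0.04 with 12 higher after centring on the 75th percentile, 0.47 with 13 higher and 3 lower after centring on ribosomal protein genes, and -0.11 after quantile normalization.

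Genes for the meiotic chromosome axis and recombination act between the cell types compared. Of 25 tested, 10 were higher in spermatids (40%) and 8 lower (32.0%), against 31.4% and 43.3% of all genes. Their median was 0.28, against -0.28 over all genes. Syce1, of the synaptonemal complex, read 416.5 and 411.2 in type A, 2383.2 and 2625.1 in pachytene cells and 2575.7 and 2442.8 in spermatids (2.55 ± 0.19). Psmc3ip, a recombination cofactor, rose by 3.17 ± 0.20. Trip13, an ATPase of the chromosome axis, fell by 2.13 and the X-linked gene Tex11 by 1.63. Tex11 read 616.6 and 677.3, then 29.9 and 23.7, then 204.7 and 190.1. The number called lower was 4 without spermatid replicate 1, 4 after quantile normalization and 3 after centring on the 75th percentile, where 15 were higher. Centring on ribosomal protein genes gave 16 higher and 2 lower.

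Imprinted genes were mostly lower in spermatids. Of the 30 that passed the filter, 23 were lower (76.7%, against 43.3% of all genes). Only 3 were higher, where the share over all genes was 31.4%, and the imprinted median was -1.89. Over all 40 on the array, with no filter, the median was -1.25. It was -1.20 with the mean of all probe sets and -1.02 after centring on ribosomal protein genes, where 18 were lower and 5 higher. After Plagl1 and Dlk1 the largest falls were Ndn, which read 703.0 and 974.3 against 43.1 and 40.8 (-3.86 ± 0.22), and Peg3, at 774.9 and 719.4 against 44.3 and 45.3 (-3.65 ± 0.19). Other probe sets of both genes reached 0.26 and 0.04. Slc22a18, Mcts2 and Trappc9 rose by 2.07, 1.31 and 1.24, with another Trappc9 probe set called lower and its call lost in the mean over probe sets (0.08). Of 23 genes for DNA methylation and chromatin silencing, 14 fell (60.9%, against 43.3% of all genes) and 4 rose (17.4%, against 31.4%), with a median of -1.25. After centring on ribosomal protein genes 7 fell, with a median of -0.38. The median was -0.81 after centring on the 75th percentile and -0.54 with the mean of all probe sets. The de novo methyltransferases Dnmt3a and Dnmt3b fell by 2.93 and 2.94, and the maintenance enzyme Dnmt1 by 1.87, from 1035.5 and 1177.9 to 318.7 and 265.6. Dnmt3l, their catalytically inactive partner, rose by 2.35 ± 0.20, from 19.9 and 20.2 to 154.2 and 182.5, and Ezh2, the histone methyltransferase of Polycomb, by 1.14 ± 0.21. The number called higher in this list was 2 without spermatid replicate 1 or without replicate 2, 7 after centring on the 75th percentile and 8 after centring on ribosomal protein genes.

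Cytosolic ribosomal protein genes fell in 28 of 40 cases (70.0%, against 43.3% of all genes) and rose in 0, with a median of -0.99. Rps19 read 2814.9 and 2532.1 in type A and 626.5 and 901.2 in spermatids (-1.81 ± 0.23), and Rpl6 fell by 1.70, while Rps29 read 6414.7 and 5678.8 against 5997.6 and 6305.5 and did not pass (0.03 ± 0.19). The count depended on scaling. It was 20 lower and 1 higher after centring on the 75th percentile, and 5 lower and 7 higher when these genes themselves set the centre. Of 4 tested paralogs of ribosomal protein genes, Rpl39l rose by 1.94 ± 0.37 and Rps4l read 1201.5 and 1380.6 against 1065.8 and 1429.8 (-0.06 ± 0.22).

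Besides Plagl1, the 12 largest falls were Col4a4, Ptch1, Col1a1, Bgn, Mfap4, Cyp26b1, Fstl1, Edn1, Sdc4, Adcy7 and Tmem114, with changes from -5.49 to -4.72. Col1a1, a fibrillar collagen, read 1210.2 and 1605.5 in type A and 32.9 and 18.9 in spermatids (-5.09 ± 0.25). Mfap4, a microfibril protein, read 271.8 and 1121.3 against 2.4 and 3.0 (-4.94 ± 0.53). Bgn, an X-linked matrix proteoglycan, read 683.2 and 1580.7 against 25.5 and 7.1 (-5.09 ± 0.41). The type A replicates lay further apart for Mfap4 and Bgn, with replicate 2 the higher, than for Col1a1, Cyp26b1 and Ptch1. The groups did not overlap, as the choice of these genes required. Cyp26b1, which degrades retinoic acid, read 836.5 and 722.8 against 11.8 and 10.4 (-4.87 ± 0.20), and Ptch1, the hedgehog receptor, 1195.5 and 1774.4 against 22.0 and 19.6 (-5.32 ± 0.24).

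Markers of somatic cells of the testis moved with these falls. Of 23 Sertoli cell genes, 20 fell (87.0%, against 43.3% of all genes) and 0 rose. Their median was -2.56, or -1.69 after centring on ribosomal protein genes. Their summed signal was 23596 and 19385 in type A, 7545 and 10613 in pachytene cells and 2339 and 2562 in spermatids. Clu, a secreted protein of Sertoli cells, read 4597.9 and 3293.5 in type A and 294.4 and 290.2 in spermatids (-3.66 ± 0.22), and Inhbb and Cldn11 fell by 3.86 and 3.67. Of 27 peritubular, stromal and endothelial genes, 23 fell (85.2%) and 1 rose (3.7%), with a median of -2.28, or -1.41 after the same centring. The riser was Postn, whose call was lost without spermatid replicate 1 and without replicate 2. The list had a summed signal of 23302 and 32504 in type A and 3242 and 3433 in spermatids. Col3a1 read 2221.6 and 2773.1 against 106.8 and 87.0 (-4.47 ± 0.21), and Pdgfra fell by 4.20. Of 7 Leydig cell genes, 6 fell (85.7%, median -2.21), among them Hsd3b1, a steroid dehydrogenase, at 246.4 and 581.3 against 23.5 and 29.1. The lowest spermatid signals in these lists were 3.9 for Amh (Sertoli), 13.9 for Star (Leydig) and 7.3 for Cnn1 (stromal). On both spermatid arrays, 16 of 23 Sertoli, 4 of 7 Leydig and 19 of 27 stromal markers were above the array median. So were 11 of 13 macrophage and blood cell markers. The share over all tested genes was not counted, and the filter itself required 2 of the 4 arrays above the median.

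Of 13 markers of macrophages and blood cells, 5 were lower (38.5%, against 43.3% of all genes) and 0 higher, with a median of -0.30, near that of all genes. Their summed signal was 1540 and 1153 in type A and 1033 and 1104 in spermatids. Quantile normalization gave 4 higher and 1 lower, centring on the 75th percentile 5 higher and 0 lower, and no member was called lower without spermatid replicate 1 or without replicate 2. The part of somatic cells in the falls of single genes was not tested. Genes such as Zbtb16, Sall4 and Lin28a are known from germ cells, whereas Dlk1, Vim and the collagens are known from somatic cells too.

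X-linked genes were lower in spermatids than autosomal genes were. Of 450 tested, 300 fell (66.7%) and 71 rose (15.8%), with a median of -1.33. Of 12802 autosomal genes, 42.6% fell and 31.8% rose, with a median of -0.26. Among single autosomes the median ran from -0.38 to -0.07 and the share of falls from 36.1% to 47.5%, and the X lay outside both ranges. The median log2 level of X-linked genes minus that of autosomal genes was 0.15 and 0.12 on the type A arrays and -0.84 and -0.73 on the spermatid arrays, and the 2 groups of arrays did not overlap. The X-linked median change minus the autosomal one was -1.08, a value that ran from -1.25 to -0.61 over pseudocounts, filters, scalings and choices of probe set. A permutation of 2 arrays against 2 cannot reach 0.05, and none was run.

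**Figure D5:**
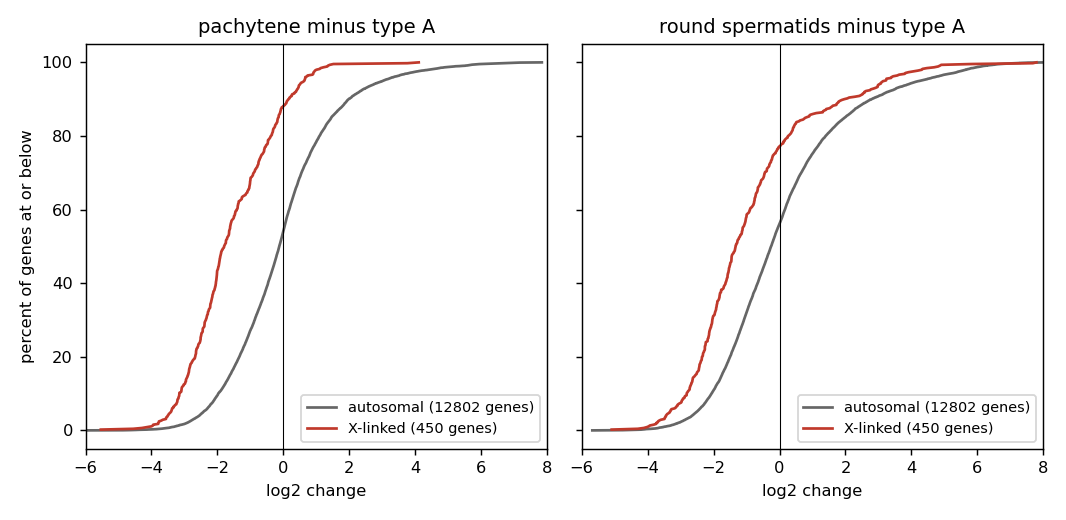
Cumulative share of genes (y axis, percent) by log2 change (x axis) for X-linked (red, 450 genes) and autosomal genes (grey, 12802), for pachytene minus type A arrays (left) and spermatid minus type A arrays (right). The X curve lies left of the autosomal one in both panels, with medians of -1.79 and -1.33 against -0.12 and -0.26.

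The X was lower still on the pachytene arrays, where the X median against type A was -1.79 and the autosomal median -0.12. The largest X-linked falls to spermatids were Bgn, Ddx3x, Rps4x, Itm2a and Sh3bgrl. Ddx3x, an RNA helicase with a Y-linked partner, read 1590.3 and 1954.7 in type A, 184.1 and 286.6 in pachytene cells and 86.5 and 63.5 in spermatids (-4.30 ± 0.22). Rps4x, a ribosomal protein, read 2707.2 and 3109.4, then 147.5 and 260.8, then 151.4 and 152.4 (-4.12 ± 0.20), with another probe set at 0.19. Both were low from the pachytene arrays on. The largest X-linked rises were Akap4, Tsga8, Cypt1, Tmsb15a and Cypt3. Tsga8 read 3.6 and 3.8 in type A and 3675.2 and 4427.6 in spermatids (7.68 ± 0.20), and Cypt1, a cysteine-rich perinuclear theca protein, 2.9 and 2.8 against 801.2 and 1389.8 (5.83 ± 0.27). Tmsb15a read 2.0 and 3.2, then 9.3 and 10.1 in pachytene cells, then 371.3 and 786.1 (4.91 ± 0.32). Of 11 tested X-linked genes listed as spermatid genes, 8 rose (72.7%, against 31.4% of all genes and 15.8% of X-linked genes). The other 3 fell (27.3%, against 43.3% and 66.7%). The risers stood at 6.75% of the spermatid signal in pachytene cells at the median.

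Where the pachytene signal lay was examined over all called genes. Of 4181 genes called higher, 60.7% were past the midpoint between type A and spermatid levels on the pachytene arrays, on the log2(signal + 16) scale, and 29.1% were beyond the spermatid level. Of the 1963 that rose at least 4-fold, 55.6% were past the midpoint, and their median pachytene signal was 41.9% of that in spermatids. Of 5775 genes called lower, 73.8% were past the midpoint, and the median pachytene signal was 37.1% of that in type A. Of 1537 genes that fell at least 4-fold, 90.0% were past the midpoint, and their median pachytene signal was 17.8% of that in type A. These shares rest on all arrays being scaled alike and have no test. The control for the 3′ end of 18S ribosomal RNA read 2657.9 and 3166.1 in type A, 276.3 and 184.9 in pachytene cells and 158.2 and 120.1 in spermatids. Its bearing on these shares was not tested.

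A net comparison misses genes that change and return. Among the 3380 genes not called, the pachytene mean was at least 2-fold above both other means for 254 (7.51%) and at least 2-fold below both for 173 (5.12%). Chst1, a carbohydrate sulfotransferase, read 65.8 and 76.3 in type A, 1177.3 and 767.9 in pachytene cells and 109.4 and 87.1 in spermatids, and Sap30, a subunit of a histone deacetylase complex, read 96.3 and 101.9, then 900.3 and 842.4, then 110.5 and 83.8. Tex15, a gene for meiotic recombination and transposon silencing, did the opposite, at 1696.0 and 1438.2, then 151.8 and 116.3, then 1334.9 and 1103.3. Prdx4, an X-linked peroxiredoxin, read 841.3 and 1216.0, then 113.3 and 138.2, then 1316.2 and 1565.1. In the first pair the pachytene arrays stood above all others and in the second pair below them. Of 79 X-linked genes not called, 22 (27.8%) had the trough and 1 (1.27%) the peak, against 149 (4.55%) and 252 (7.70%) of 3273 autosomal genes.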

How the data were processed

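The values the authors deposited are linear intensities of probe sets on Mouse 430 2.0 arrays hybridised with total RNA. Per the submitters' processing notes, MAS5 made them. No version of it is stated, and its detection calls were not used here. With 2% of probe sets trimmed at either end, each array had a mean of 125, so every change is relative to the array. Of 45101 probe sets, 34945 were annotated to 1 gene, of which 34741 matched a GRCm38.p6 gene table by Entrez identifier. Probe sets with several genes (932) or none (9160) and 64 controls named no gene.

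For each of 18194 genes, the probe set of highest mean on the 4 arrays was taken, and the gene was tested if this lay above the array median on at least 2 of them, which left 13336. Values were log2(signal + 16). The 4 arrays were fitted with limma 3.58.1 in R 4.3.3 (lmFit and eBayes, residual degrees of freedom 2, prior 6.03), two-sided, with Benjamini-Hochberg adjustment over all tested genes and calls at an adjusted p under 0.05. The script was tested on simulated data. Pseudocount, filter, scaling, arrays in the fit, left-out replicates, replicate block, probe set rule and eBayes settings were varied one at a time. X-linked genes, lists and pairs were described by counts and medians without a test. The number of arrays limits the precision.

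Genes named were the 12 largest called changes in each direction with arrays that did not overlap, the marker genes, the up to 4 largest called changes per list and direction and members against the list's direction, the pairs, the 5 largest X-linked changes in each direction, and at most 5 uncalled genes with the highest or lowest pachytene level relative to both cell types; not all are printed. Members and lists were chosen with earlier results of these data known.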

Additional observations from a re-analysis of the deposited data

Results flagged for a closer look

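Signal was also seen on probe sets for which the annotation used here names no gene, which the comparison left out. Of 2730 such probe sets that passed the filter, 335 were called higher in spermatids (12.3%) and 693 lower (25.4%) with limma, adjusted over these probe sets, against 31.4% and 43.3% of named genes. Each of these was tested singly, whereas a named gene entered by its probe set of highest mean, so the shares are not alike. The 3 largest rises were those of 1423514_at (7.54 log2), 1436903_at (6.85) and 1439525_at (6.15), chosen by their size. The first read 4.7 and 1.1 in type A, 2072.1 and 2162.6 in pachytene cells and 3512.2 and 3468.7 in spermatids. The second read 2.2 and 1.3, then 115.9 and 51.0, then 2089.4 and 1988.0, and the third 13.7 and 8.2, then 2352.0 and 2773.8, then 1885.9 and 1888.3.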

How the results depend on the processing

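The counts of 4181 higher and 5775 lower genes stayed within 1.5 times under every alternative but centring on ribosomal protein genes, which gave 6562 higher and 2786 lower. Leaving out each array in turn gave 3552 to 4235 higher and 4949 to 5804 lower. These fits have 1 array in a cell type and take the spread from the other cell type alone. The arrays share only a replicate number and were not taken as pairs (the deviations of same-numbered arrays correlated at -0.0099), and a replicate block gave 4168 higher and 5750 lower. The X-linked minus autosomal median was -1.25 with log2(signal + 1), -0.74 with log2(signal + 64), -0.61 with no filter, -0.99 after quantile normalization and -0.80 with the mean of all probe sets, and -1.06 to -1.05 with 1 array left out. Of 900 counts of list members under the alternatives, 840 stayed within 1.5 times of the count as deposited, and 40 of the 60 others came from another scaling. No gene called in both was called in the opposite direction, except 41 with the probe set highest over 8 arrays and 37 with the mean of all probe sets.

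Of the genes named, these changed sign. Centring on ribosomal protein genes gave Gopc 0.40, Cdk1 0.47, Top2a 0.41, Rps4l 0.81, Slc25a31 0.25, Sap30 0.84 and Tex15 0.51. Centring on the 75th percentile gave Cdk1 0.04, Rps4l 0.38, Sap30 0.41 and Tex15 0.08, quantile normalization gave Uhrf1 -0.30, Rps29 -0.13, Sap30 0.42 and Prdx4 -0.00, and the mean of all probe sets gave Rps29 -0.15. With 1 array left out, Uhrf1 ran from -0.20 to 0.24, Rps29 from -0.06 to 0.11, Rps4l from -0.27 to 0.15 and Sap30 from -0.21 to 0.14. Apart from Slc25a31, none of these passed the test as deposited. The cause was not tested. With 2 arrays a group and no detection calls, changes near the floor of the signal are limited most.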

Other observations

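Of 8 Y-linked genes tested, 2 were higher in spermatids (25.0%) and 4 lower (50%), near the 31.4% and 43.3% of all genes, with a median of -0.57. The control probe sets for the 3′ end of Gapdh read 2615.8 and 2689.5 on the type A arrays and 853.9 and 926.7 on the spermatid arrays, and those for the 5′ end read 2698.2 and 3705.6 against 1075.9 and 1211.0. For beta-actin, the 3′ control read 5828.2 and 5243.1 against 3964.2 and 3448.3, and the 5′ control 4030.8 and 4084.6 against 2361.7 and 2296.8. These are values without a test.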
